A study of Sus scrofa with 9 samples.

Results

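SOX9, PROM1, KIT, OLFM4, TSPAN8 and EPCAM are genes used to mark progenitor cells of glands and of simple epithelia. Here they were followed as a group in pig esophagus, on every probe set of the array that the platform annotation assigns to 1 of these symbols alone. Each of the 6 genes had 1 such probe set, so the group holds 6 of the 12217 genes tested and 6 of the 27558 probe sets on the array. Total RNA of 9 samples was measured, each on its own Affymetrix PorGene 1.0 ST array. There were 3 samples of esophageal submucosal glands (ESMG), which lie beneath the lining and secrete mucus and fluid, and 3 of the squamous tissue above them, both from control pigs 37, 39 and 40. The other 3 samples, labelled pigs 1, 2 and 3, were spheroids raised in vitro from ESMG; the sources used here do not say whether any of these pigs is one of the tissue donors. Spheroids grew in growth factor reduced Matrigel under Advanced DMEM/F12 with HEPES at 10 mM, B27, N2 and recombinant human EGF at 50 ng/ml. The labels used here give no genotype, strain or age. RNA came from the RNeasy Universal Mini kit for tissues and from the RNeasy Micro kit for spheroids, so kit and culture cannot be told apart. A control grown from squamous tissue in the same medium was not analysed here, so culture and gland origin cannot be told apart in the spheroids.

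SOX9 is a transcription factor that maintains progenitors in ducts, crypts and many developing glands. KIT is the receptor tyrosine kinase for stem cell factor, the product of KITLG, and besides salivary and other gland progenitors it marks mast cells, interstitial cells of Cajal and melanocytes. PROM1 (CD133) and EPCAM are surface glycoproteins, the first of apical membrane protrusions and the second of simple epithelia, where it takes part in adhesion. TSPAN8 is a tetraspanin, a small membrane protein that groups other proteins into membrane domains. OLFM4 is a secreted olfactomedin glycoprotein known from intestinal crypts and also from neutrophils.

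Levels and differences are on the log2 scale of RMA (robust multi-array averaging), where 1 unit means 2-fold. A gene was called where limma's two-sided Benjamini-Hochberg adjusted p over all genes tested was under 0.05 and the fold at least 2. The array medians lay between 6.84 and 7.04, and precision is limited by 3 arrays per group. On the second principal component, which held 16.7% of the variance and separated the tissues, the ESMG array of pig 40 lay at 6.09, against 34.7 for each of the other ESMG arrays and -34.1 to -18.3 for squamous tissue. Of 9 measured glandular markers, 4 were called higher in ESMG than in squamous tissue, including the simple keratins KRT8 (2.86) and KRT18 (3.29). Only 4 of 15 squamous markers were measured, and their mean level was 11.61 to 12.28 in ESMG against 12.39 to 12.59 in squamous tissue. The fibroblast list was at 11.25 to 11.62 in ESMG and at 7.30 to 8.04 in spheroids. The tissue samples thus held RNA of several cell types. In such bulk samples, fewer cells of a type and less RNA per cell cannot be told apart.

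The glands held more RNA of 5 of these 6 genes than the squamous tissue above them. OLFM4 was 7.08-fold, EPCAM 3.90-fold, SOX9 2.96-fold, PROM1 2.94-fold and KIT 2.22-fold higher in ESMG, and TSPAN8 lay near the bottom of every array. These 5 of 6 were called higher and none lower. Of all genes, 3.06% were called, 2.65% higher and 0.409% lower in ESMG. The 6 genes were chosen with earlier results of these data known, so these shares are no test of the group. In each of the 5 the ESMG arrays did not overlap the squamous arrays, as in 21.6% of all genes. Within each of the 3 pigs, each of these 5 genes was higher in ESMG than in squamous tissue. In spheroids against ESMG, KIT was 7.74-fold lower, and no other member was called. That share, 1 of 6, was near the 16.9% of all genes called there, 7.99% higher and 8.91% lower. Arrays of 2 of the 6 genes, KIT and SOX9, did not overlap, a share under the 51.3% of all genes. Against squamous tissue, OLFM4, SOX9 and EPCAM were called higher and KIT lower in spheroids, and the arrays of these 4 did not overlap. Of all genes, 16.7% were called there, 8.61% higher (1052 genes) and 8.05% lower (983), and 50.4% did not overlap. Which direction held more calls depended on the scaling: equal array medians gave 1370 higher and 834 lower, whereas cyclic loess gave 891 higher and 1060 lower. In spheroids against ESMG, 976 genes were higher and 1089 lower, against 1244 and 935 with equal medians and 755 and 1245 after cyclic loess. Setting medians equal moved the median difference of all genes by 0.13 and 0.11 in these comparisons.

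**Figure D1:**
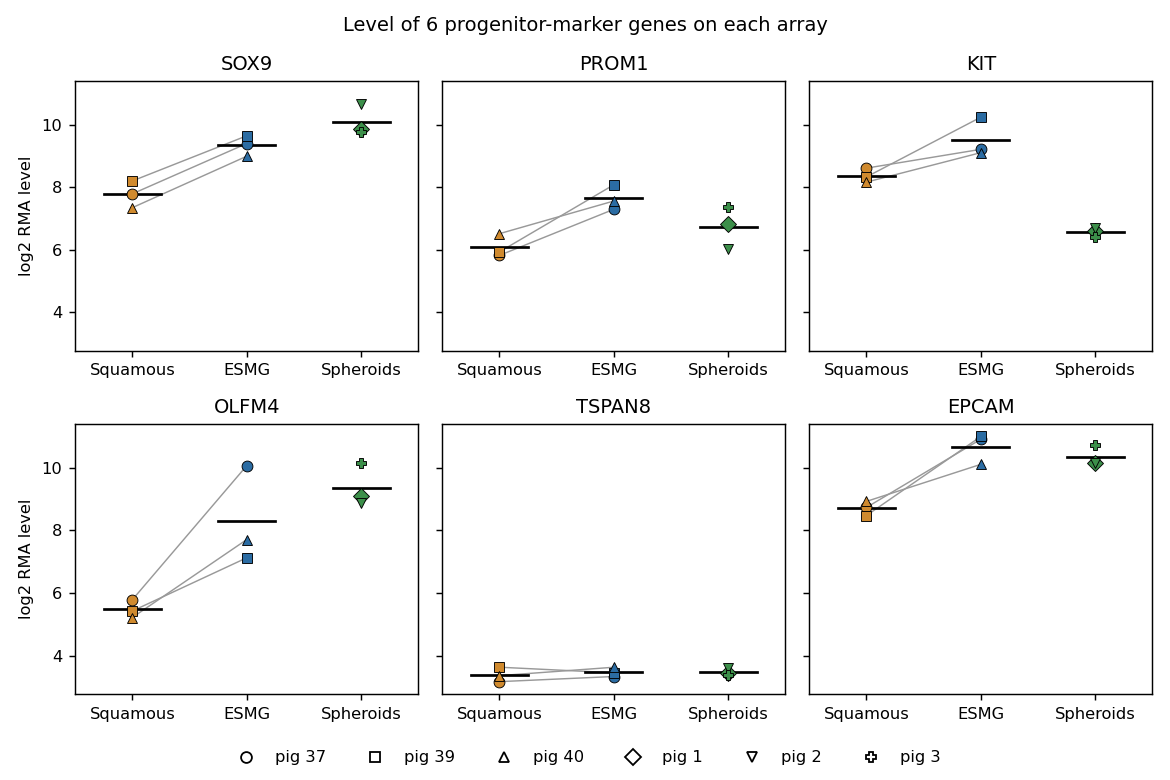
Log2 RMA level (vertical axis) of each of the 6 genes on each of the 9 arrays, by group. Points are arrays with 1 marker shape per pig, bars are group means and grey lines join the tissues of a pig; KIT falls to between 6.41 and 6.70 in spheroids while SOX9 lies there at 9.77 to 10.65, and TSPAN8 stays between 3.17 and 3.63 everywhere.

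SOX9, the transcription factor of the group, had its lowest levels in squamous tissue and its highest in spheroids. In ESMG it was at 9.40, 9.64 and 8.99 in pigs 37, 39 and 40, and in squamous tissue of the same pigs at 7.79, 8.20 and 7.35. Spheroids of pigs 1, 2 and 3 stood at 9.86, 10.65 and 9.77. The 3 groups did not overlap, and the order was squamous tissue, ESMG, spheroids. The difference between the tissues was 1.56 (SE 0.27, adjusted p = 0.00578 by limma), and it varied little among animals: 1.61, 1.44 and 1.64 within pigs 37, 39 and 40. Spheroids were 2.31 above squamous tissue (4.97-fold, SE 0.27, adjusted p = 4.31e-05). Against ESMG they were 0.75 higher (SE 0.27, 95% interval 0.15 to 1.35, adjusted p = 0.0461), which passed the p but not the fold, so SOX9 was not called there. Without the spheroids of pig 2 that difference was 0.47, and the adjusted p ranged from 0.0233 to 0.189 over the settings run.

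Among 13 other measured SOX genes none was called between the tissues (1 of 13 lower and 2 higher at an unadjusted p under 0.05), and their median difference was -0.09, against -0.06 over all genes. Over the settings run that median ranged from -0.20 to 0.04. The list includes SOX2, a factor of basal squamous and foregut progenitors, which was at 10.28 in ESMG, 10.63 in squamous tissue and 10.83 in spheroids, and SOX10, a factor of glia and of salivary acinar progenitors, with a tissue difference of 0.40 (SE 0.16). SOX6 was called lower in spheroids than in ESMG (-1.51, SE 0.30, adjusted p = 0.00164) and none of the 13 higher. SOX4 was 0.97 higher, just under the fold minimum, and against squamous tissue it was called at 1.15, except with array weights. The genes whose levels over the 9 arrays were most like those of SOX9 were PTRHD1 (Pearson r = 0.99), STARD10 (r = 0.98) and CNPY2 (r = 0.98), of 11077 genes compared. These arrays fall into 3 groups, which all genes share, so such values describe the group pattern.

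KIT, the receptor, was the member with the largest fall in culture. Its ESMG levels were 9.21, 10.24 and 9.11 in pigs 37, 39 and 40, and the squamous levels were 8.61, 8.33 and 8.16. All 3 spheroid samples were lower than any tissue sample, at 6.59, 6.70 and 6.41. The order was thus ESMG, squamous tissue, spheroids, with no overlap between groups. The spheroid minus ESMG difference was -2.95 (95% interval -3.52 to -2.38, SE 0.26, adjusted p = 5.25e-06), which ranked KIT the 142nd largest fall of 12217 genes. Against squamous tissue the difference was -1.80 (SE 0.26, adjusted p = 0.000185). Both falls were called in each of the 16 settings run for them. KIT went from the 84.9th to 93.9th percentile of probe sets on the ESMG arrays to the 42.9th to 46.3rd on the spheroid arrays.

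Between the tissues KIT differed by 1.15 (2.22-fold, SE 0.26, adjusted p = 0.0229), and the 3 pigs varied: 0.60 in pig 37, 1.91 in pig 39 and 0.94 in pig 40. This call was the least secure of the 5. Without the ESMG array of pig 39 the difference was 0.79, under the fold minimum. With one squamous sample left out, pig 39 or pig 40, it was 1.13 (adjusted p = 0.0720) or 1.05 (adjusted p = 0.0937), and neither was called. A model of ESMG and squamous tissue only also gave no call (1.15, adjusted p = 0.0568).

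KITLG, the ligand of KIT, lay at 7.78, 8.40 and 7.02 in ESMG of pigs 37, 39 and 40, at 7.48, 6.94 and 7.56 in squamous tissue and at 8.58, 8.79 and 8.54 in spheroids. The ligand was therefore highest in the group in which its receptor was lowest. It was called in spheroids against squamous tissue (1.31, SE 0.29, adjusted p = 0.00349) and missed the fold minimum against ESMG (0.90, SE 0.29, adjusted p = 0.0262). Of 15 measured genes of the KIT ligand and its signalling, none was called between the tissues by limma (1 higher and none lower at an unadjusted p under 0.05). Against ESMG, 1 of the 15 was called higher and none lower in spheroids: SPRED1, an inhibitor of the RAS pathway, at 1.05 (SE 0.25). That call was lost without the ESMG array of pig 40 or the spheroids of pig 3, with array weights, and after quantile or cyclic loess normalization. The list's median difference there was 0.11, against 0.09 over all genes. It ranged from -0.02 to 0.22 over the settings run. At an unadjusted p under 0.05 by limma, 6 of the 15 were higher and 1 lower in spheroids. GRB2 and SHC1, adaptors below the receptor, were 0.70 and 0.48 higher and BTK was 0.94 lower, all under the fold minimum.

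Markers of other KIT-bearing cells were measured on the same arrays. Of 7 mast cell genes none was called between the tissues by limma, and none had an unadjusted p under 0.05. Their mean level was 5.98 to 6.45 in ESMG, 6.07 to 6.62 in squamous tissue and 5.60 to 5.84 in spheroids. The ESMG array of pig 39, highest in KIT, had the lowest mast cell mean of the ESMG arrays (5.98). That is 1 array, and the part of mast cells in the KIT difference between the tissues was not tested. In spheroids 2 of the 7 were called lower than in ESMG, MS4A2 at -2.74 (SE 0.28) and FCER1A at -2.01 (SE 0.31), both subunits of the IgE receptor. None was called higher, but 1 was higher at an unadjusted p under 0.05: IL1RL1, the receptor of interleukin 33, at 0.99 (SE 0.33, adjusted p = 0.0294). GATA2 differed by 0.37 (SE 0.18) and was not called. MS4A2 and FCER1A fell to 4.63 and 4.75, under the lower quartile on all 3 spheroid arrays, and the part of mast cells in the KIT fall was not tested. CPA3, TPSAB1 and CMA1, the mast cell proteases, were not analysed here. Of 4 genes of interstitial cells of Cajal, ETV1 was called higher in ESMG than in squamous tissue (2.79, SE 0.36) and ANO1 was not (0.45, SE 0.14). Neither was called in spheroids against ESMG (ETV1 -0.22, ANO1 0.24). There 1 of the 4, PRKCQ, was lower at an unadjusted p under 0.05 by limma (-0.95, SE 0.37, adjusted p = 0.0602). It lay under the lower quartile on 8 of the 9 arrays. ETV1 and ANO1 averaged 9.33 and 9.45 in ESMG and 9.12 and 9.69 in spheroids. Content of Cajal cells cannot be read from these genes, and the part of such cells in the KIT differences was not tested. In the melanocyte list DCT was called higher in ESMG (1.11) and MITF lower in spheroids than in ESMG (-1.02). DCT was dim, under the lower quartile on 6 of the 9 arrays, and was not called with the ESMG sample of pig 39 left out. MITF was not called with the ESMG samples of pig 39 or 40 or the spheroids of pig 3 left out, with equal array medians and with array weights. TYR, MLANA and TYRP1 lay under the lower quartile of all 9 arrays.

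The genes most like KIT over the 9 arrays were the neurotrophin receptor NTRK3 (r = 0.99), the zinc finger gene ZNF568 (r = 0.99) and ADAMTSL3, a matrix protein (r = 0.99). NTRK3 averaged 9.15 in ESMG, 7.99 in squamous tissue and 6.74 in spheroids. Stromal and leukocyte genes were also lower in spheroids than in ESMG: 9 of 9 fibroblast, 6 of 6 smooth muscle, 5 of 6 endothelial and 4 of 7 leukocyte markers were called lower. Of these, the leukocyte gene CD3E was called in only 8 of 16 settings. The endothelial gene KDR lost its call when its probe sets were averaged. When every probe set was tested, another probe set of KDR and of MYLK of smooth muscle was read, and neither was called. MYLK differed there by -0.59, against -2.52 on the probe set used in the main fit. The part of such cells in the KIT fall was not tested. Between the tissues the fibroblast list had none of 9 called (2 higher and 1 lower at an unadjusted p under 0.05). There the smooth muscle list had 2 of 6 called lower in ESMG, SYNPO2 (-1.29) and PLN (-1.38), 5 of 6 without the ESMG array of pig 40. Of the 7 leukocyte markers 1 was called higher in ESMG than in squamous tissue and none lower (3 higher and none lower at an unadjusted p under 0.05), and their median difference was 0.61. Their mean level was higher in ESMG in each pig, at 9.01 against 8.09 in pig 37, 7.85 against 7.55 in pig 39 and 8.25 against 7.46 in pig 40. The called gene was LCP1 (1.24, SE 0.28), and its call was lost in 4 of 17 settings: with the ESMG sample of pig 37 or the squamous sample of pig 39 or 40 left out, and with pig as a random replicate block. The part of leukocytes in the KIT and OLFM4 differences between the tissues was not tested.

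**Figure D2:**
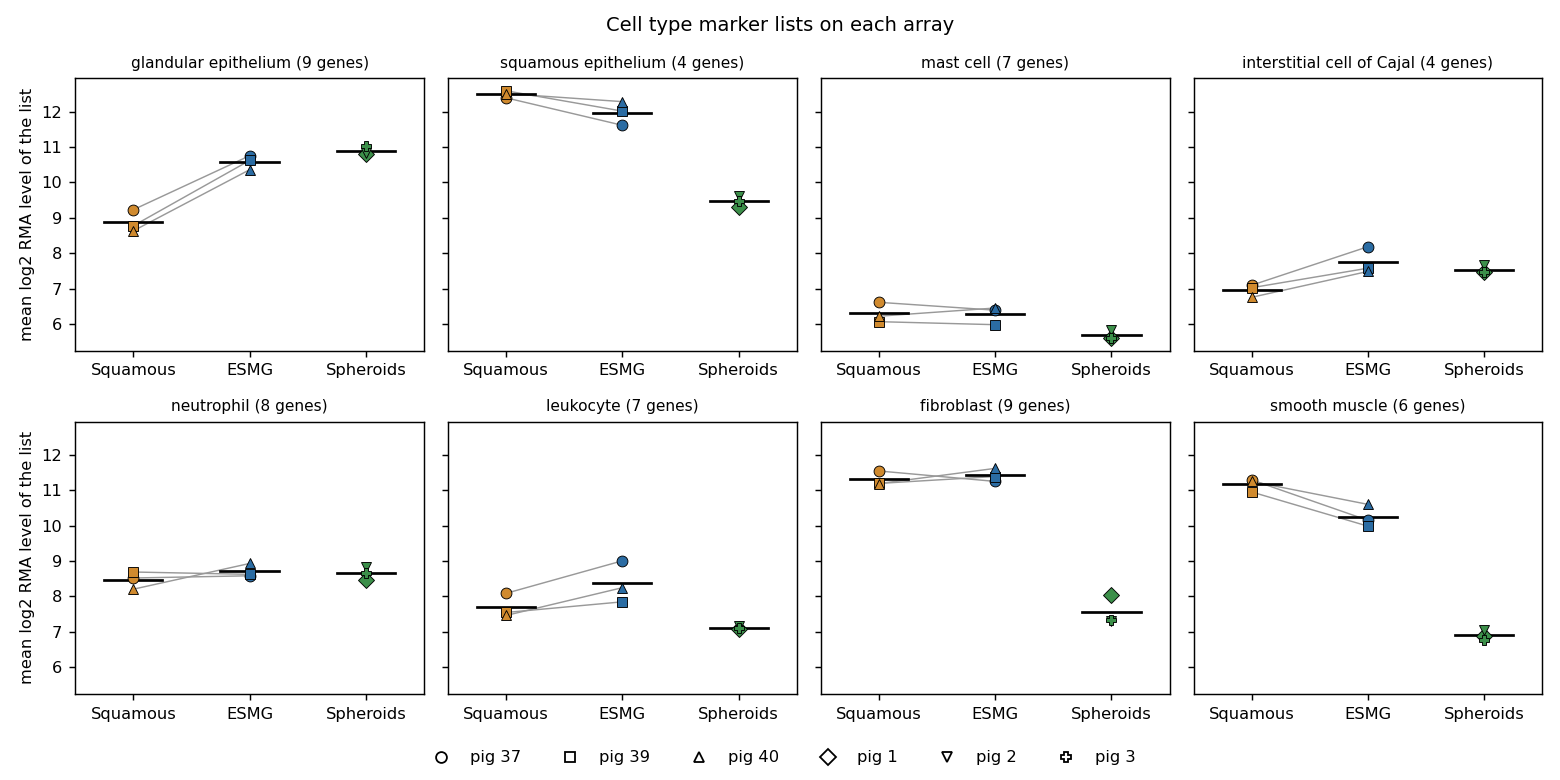
Mean log2 RMA level (vertical axis) of the measured genes of 8 cell type marker lists on each array, by group. Points are arrays, bars group means and grey lines join the tissues of a pig; the fibroblast list stands at 11.25 to 11.62 in ESMG and 7.30 to 8.04 in spheroids, and the mast cell list at 5.98 to 6.45 and 5.60 to 5.84.

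PROM1, the first of the surface proteins, was a mid-level gene. It stood at 7.30, 8.08 and 7.56 in ESMG of pigs 37, 39 and 40, at 5.82, 5.93 and 6.52 in squamous tissue and at 6.82, 6.01 and 7.37 in spheroids of pigs 1, 2 and 3. ESMG lay above squamous tissue without overlap, whereas the spheroids spread over both, the pig 2 culture in the squamous range and the pig 3 culture in that of ESMG. The tissue difference was 1.55 (SE 0.32, adjusted p = 0.0144), at 1.47, 2.14 and 1.04 within pigs 37, 39 and 40. With the ESMG sample of pig 39 left out PROM1 was not called (1.34, adjusted p = 0.0625), nor with the squamous sample of pig 37 (1.42, adjusted p = 0.0562) or pig 39 (1.48, adjusted p = 0.0575) left out.

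Spheroids differed from ESMG in PROM1 by -0.91 (SE 0.32, 95% interval -1.61 to -0.21, adjusted p = 0.0385), under the fold minimum. The difference was called without the spheroids of pig 3 (-1.23, adjusted p = 0.00837) or the ESMG array of pig 37 (-1.09, adjusted p = 0.0301), and was -0.55 without the spheroids of pig 2. Against squamous tissue the spheroids were 0.64 higher (SE 0.32, 95% interval -0.06 to 1.34, adjusted p = 0.136), and the difference was called at 1.00 without the spheroids of pig 2 (adjusted p = 0.0176) and was 0.33 without those of pig 3. The spread of PROM1 among spheroid samples, an SD of 0.68, was larger than that of 99.2% of genes. PROM2, the other prominin, was at 8.95 in ESMG, 9.53 in squamous tissue and 9.52 in spheroids, and was called in none of the 3 comparisons (adjusted p from 0.0148 to 0.971). The most like genes were PGM2L1 (r = 0.94), PCCA (r = 0.92) and POP5 (r = 0.92), and no gene reached 0.95.

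EPCAM was high in ESMG and in spheroids. Its levels were 10.91, 11.00 and 10.11 in ESMG of pigs 37, 39 and 40, 8.73, 8.48 and 8.93 in squamous tissue and 10.17, 10.15 and 10.75 in spheroids of pigs 1, 2 and 3. ESMG and spheroids overlapped, and both lay above all squamous arrays. The tissues differed by 1.96 (SE 0.25, adjusted p = 0.000697), with 2.18, 2.53 and 1.18 within pigs 37, 39 and 40, and spheroids exceeded squamous tissue by 1.64 (SE 0.25, adjusted p = 0.000247). Between spheroids and ESMG the difference was -0.32 (SE 0.25, 95% interval -0.86 to 0.22, adjusted p = 0.333), and EPCAM was called there in none of the 16 settings run. Leaving out single arrays moved that difference between -0.60 (SE 0.21, adjusted p = 0.0373, without the ESMG sample of pig 40) and -0.16 (SE 0.26, adjusted p = 0.702, without that of pig 39). The smallest tissue difference was in pig 40, and without that ESMG array it was 2.24.

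Of 11 measured partners and proteases of EPCAM none was called between the tissues by limma (2 higher and 2 lower at an unadjusted p under 0.05), and their median difference was 0.18, against -0.06 over all genes. In spheroids against ESMG, FHL2, which binds the released tail of EPCAM, was 3.01 higher (SE 0.17, adjusted p = 1.87e-07). ST14, the protease matriptase, was 1.90 higher (SE 0.13, adjusted p = 6.98e-07), and LEF1, a factor of the same nuclear complex, was lower (-1.35, SE 0.23). The list's median there was 0.66, against 0.09 over all genes. CLDN7, the claudin that binds EPCAM, was called against squamous tissue (1.08, SE 0.17), though not without the squamous sample of pig 40, with array weights or after quantile or cyclic loess normalization. It was 0.81 above ESMG, under the fold minimum. Against squamous tissue 5 of 11 were called higher in spheroids and 1 lower, beside 8.61% and 8.05% of all genes. The genes most like EPCAM were MYO5C, a motor of secretory vesicles (r = 0.99), TC2N (r = 0.99) and TMEM144 (r = 0.99). MYO5C was at 8.73 in ESMG, 5.64 in squamous tissue and 8.40 in spheroids.

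**Figure D3:**
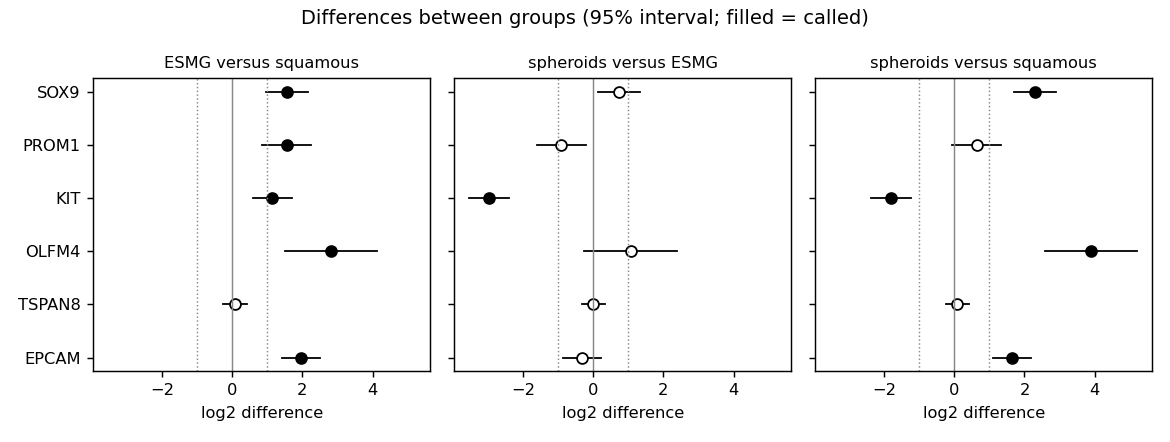
Log2 differences (horizontal axis) of the 6 genes in the 3 comparisons, with limma's 95% intervals; dotted lines mark a 2-fold difference and filled points are called. OLFM4 has the widest intervals (1.51 to 4.14 between the tissues), KIT is left of 0 in both spheroid comparisons, and TSPAN8 stays at 0.01 to 0.09.

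TSPAN8 lay near the floor of the arrays in every sample. Its ESMG levels in pigs 37, 39 and 40 were 3.33, 3.45 and 3.63, the squamous levels 3.17, 3.63 and 3.36 and the spheroid levels of pigs 1, 2 and 3 were 3.45, 3.60 and 3.38. All 9 values lay between the 2.33rd and 5.65th percentile of the probe sets on their array, and the groups overlapped. The differences were 0.08 (SE 0.15, adjusted p = 0.833) between the tissues, 0.01 (SE 0.15, adjusted p = 0.982) between spheroids and ESMG and 0.09 (SE 0.15, adjusted p = 0.699) between spheroids and squamous tissue. The first of these turned to -0.0245 with the squamous sample of pig 37 left out. RMA compresses differences at such levels and no detection p was used, so neither absence of the transcript nor equal levels can be read from them. The genes most like it were SHANK1 (r = 0.94), PRPF40B (r = 0.93) and NPTX2 (r = 0.92), over TSPAN8 levels that spanned only 3.17 to 3.63.

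Other tetraspanins gave brighter signals. Of 20 measured, 4 were called higher in ESMG than in squamous tissue and 1 lower, with a median of 0.03. Of all genes, 2.65% were called higher and 0.409% lower there. TSPAN1 differed most, at 12.03 against 7.64 (4.39, SE 0.50, adjusted p = 0.000399), followed by TSPAN13 (2.59, SE 0.30), TSPAN12 (1.85) and TSPAN33 (1.45). TSPAN2 was the lower one (-1.36), and that call was lost in 5 of 17 settings: without the ESMG samples of pig 37 or 39, without the squamous samples of pig 37 or 40, and with pig as a random replicate block. Against ESMG, 6 of the 20 were called lower and 3 higher in spheroids, beside 8.91% lower and 7.99% higher of all genes. The largest falls were in CD53, a leukocyte tetraspanin (-3.29), and TSPAN13 (-2.00), and the largest rises in TSPAN17 (1.57) and CD151, a partner of laminin-binding integrins (1.55). TSPAN1 was lower than in ESMG (-1.81, SE 0.50, adjusted p = 0.0121), a call lost without the spheroids of pig 2, and higher than in squamous tissue (2.58, SE 0.50, adjusted p = 0.00143).

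OLFM4, the secreted member, had the largest difference between the tissues and also the largest spread. Its ESMG levels were 10.07 in pig 37, 7.13 in pig 39 and 7.71 in pig 40. In squamous tissue it was at 5.79, 5.43 and 5.22 in the same pigs, near the lower quartile of the arrays (5.36 to 5.65), and in spheroids of pigs 1, 2 and 3 at 9.09, 8.86 and 10.15. The ESMG sample of pig 37 was close to the highest spheroid sample, while the other ESMG samples lay below every spheroid sample. The SD of 1.56 over the ESMG samples exceeded that of 99.9% of genes. Even so, ESMG did not overlap squamous tissue, and the difference was 2.82 (SE 0.60, 95% interval 1.51 to 4.14, adjusted p = 0.0169), made of 4.28, 1.70 and 2.49 within pigs 37, 39 and 40. Without the ESMG array of pig 37 it was 1.94, still called, and without that of pig 39 it was 3.41. OLFM4 was not called with the squamous sample of pig 39 (2.80, adjusted p = 0.0595) or pig 40 (2.70, adjusted p = 0.0722) left out.

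Spheroids exceeded squamous tissue in OLFM4 by 3.89 (14.8-fold, SE 0.60, adjusted p = 0.000305), the 22nd largest rise of 12217 genes and called in each of the 16 settings run. Against ESMG the difference of 1.07 was not called (SE 0.60, 95% interval -0.25 to 2.38, adjusted p = 0.184). That comparison depended on the ESMG sample of pig 37: without it spheroids were 1.95 higher and called (adjusted p = 0.00108), and without that of pig 39 the difference was 0.48.

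Since neutrophils also carry OLFM4, their markers were read beside it. Of 8 neutrophil genes 2 were called higher in ESMG than in squamous tissue, LCN2 (1.84, SE 0.20) and PGLYRP1 (1.78, SE 0.22), both antibacterial proteins found in neutrophil granules. None was called lower, but 1 was lower at an unadjusted p under 0.05 by limma: CXCR2 (-0.57, SE 0.17, adjusted p = 0.0726). The list's median difference was -0.23, against -0.06 over all genes. The list mean was 8.58 to 8.93 in ESMG, 8.20 to 8.69 in squamous tissue and 8.46 to 8.83 in spheroids. The ESMG array of pig 37, highest in OLFM4, had the lowest neutrophil mean of the ESMG arrays (8.58) and the highest leukocyte mean (9.01, against 7.85 and 8.25). Its mean of the squamous markers was also the lowest of the ESMG arrays (11.61, against 12.01 and 12.28). S100A12, S100A8 and S100A9 were the brightest genes of the neutrophil list in both tissues. They lay at 12.76, 10.69 and 9.40 in ESMG and at 12.95, 11.05 and 9.66 in squamous tissue. The list mean thus cannot be read as neutrophil content, and the part of leukocytes in the OLFM4 level of this array was not tested. RNA of MPO, a granule enzyme of neutrophils, was at 5.41 in ESMG, 5.69 in squamous tissue and 5.73 in spheroids. These levels were near the lower quartile, and neutrophil content cannot be read from them. Mean OLFM4 was highest in spheroids, but it was not called against ESMG and the arrays overlapped. The part of leukocytes in its spheroid level was not tested. In spheroids 4 of 7 leukocyte markers were called lower than in ESMG and none higher. Over the settings run these counts were 3 to 4 and 0 to 1. The pan-leukocyte antigen PTPRC was at 5.57 against 8.51 in ESMG, LCP1 differed by 0.01 (SE 0.28) and AIF1 was 0.82 higher (SE 0.28, adjusted p = 0.0321), under the fold minimum. Against squamous tissue 3 of the 7 were called lower in spheroids, and LCP1 (1.26, not called with array weights) and AIF1 (1.27) were called higher. Of the neutrophil list, LCN2 (2.03) and MMP9 (2.45) were called higher than in squamous tissue and CXCR2 (-1.38) lower. MMP9 was called higher (2.50) and PGLYRP1 lower (-1.74) in spheroids than in ESMG.

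Of 8 olfactomedin and prominin relatives, 2 were called higher in ESMG than in squamous tissue, beside 2.65% of all genes. OLFM3 was at 9.47, 9.47 and 5.80 in ESMG of pigs 37, 39 and 40 and between 4.75 and 5.21 on all other arrays, so the array of pig 40 stood with the squamous tissue for this gene. Its difference was 3.20 (SE 0.74, adjusted p = 0.0260), and the call was lost in 6 of 16 settings: leaving out any tissue sample of pig 37 or 39 or the squamous sample of pig 40, and modelling the tissues only. MYOC, myocilin, was 1.68 higher in ESMG (SE 0.16, adjusted p = 0.000105). Both were called lower in spheroids than in ESMG, OLFM3 at -3.29 and MYOC at -3.47, while OLFML2A (2.49) and GLDN (1.88) rose. OLFM3 lay under the lower quartile on all 6 squamous and spheroid arrays and MYOC averaged 5.39 in spheroids, so the sizes of these differences are limited by dim signal. The genes most like OLFM4 were GM2A, a lysosomal lipid-binding protein (r = 0.97), ABHD2 (r = 0.97) and RIPK3 (r = 0.96).

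**Figure D4:**
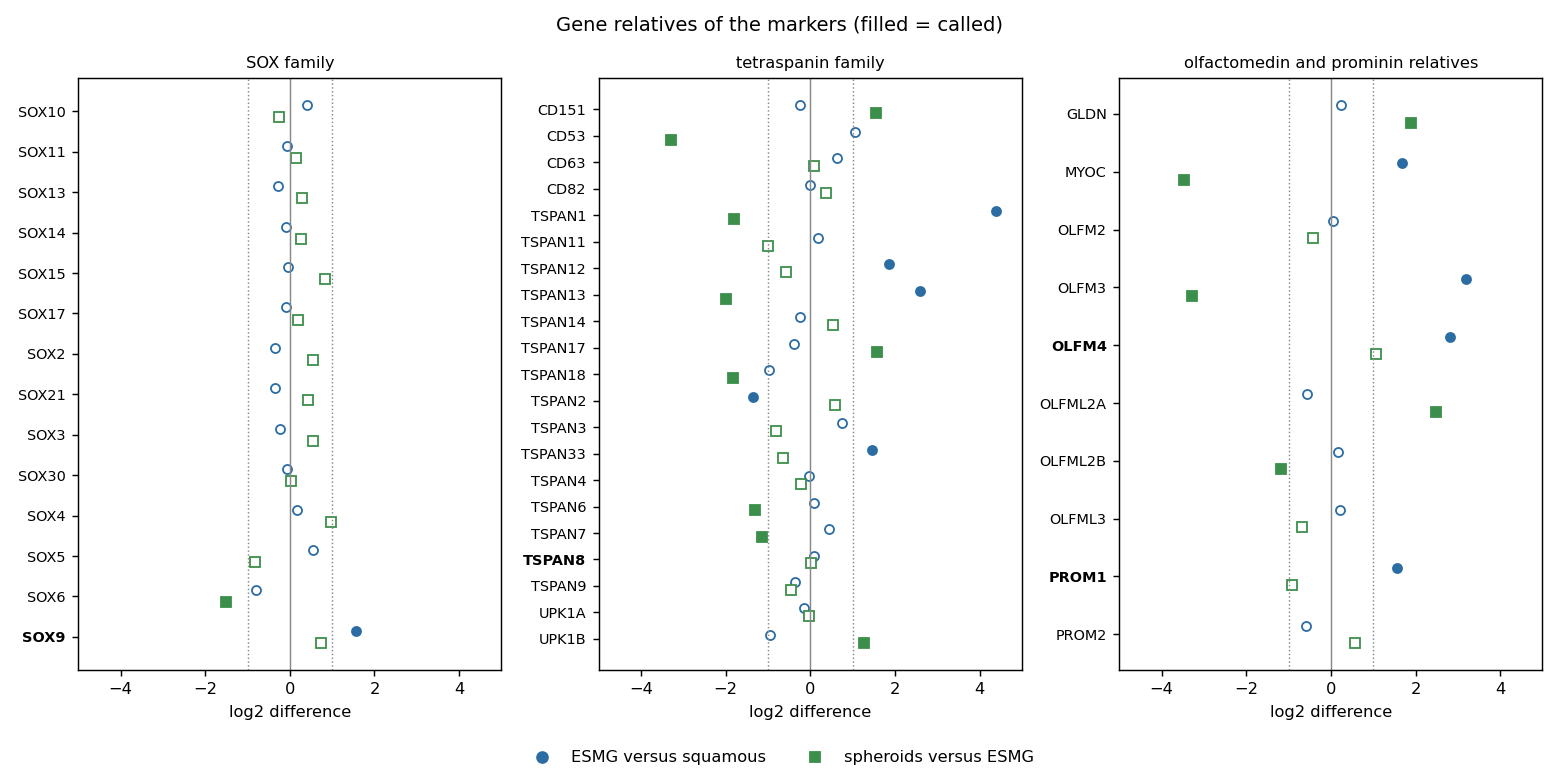
Log2 differences (horizontal axis) of SOX9, TSPAN8, OLFM4 and PROM1 (bold) and their measured relatives, for ESMG versus squamous tissue (circles) and spheroids versus ESMG (squares); filled symbols are called and dotted lines mark 2-fold. Both comparisons share the ESMG arrays. SOX9 is the one called SOX gene between the tissues at 1.56, and of the relatives TSPAN1 (4.39) and OLFM3 (3.20) differ most between the tissues.

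Other progenitor genes did not follow the 5 members as a block. Of 18 measured stem cell genes of intestine and stomach, 2 were called higher in ESMG than in squamous tissue and none lower, and their median difference was -0.16, against -0.06 over all genes. The 2 were the chloride importer SLC12A2 (3.25, SE 0.29) and the water channel AQP5 (2.30, SE 0.23), which are also genes of fluid secretion, and 4 were called without the ESMG array of pig 40. LRIG1, a brake on EGF receptor signalling that marks quiescent stem cells, was 0.97 higher in ESMG (SE 0.23, adjusted p = 0.0290), under the fold minimum. It was at 7.97, 8.43 and 7.38 in ESMG of pigs 37, 39 and 40 and at 5.10, 5.29 and 5.54 in spheroids of pigs 1, 2 and 3. The spheroids did not overlap ESMG, and the difference was -2.61 (SE 0.23, adjusted p = 5.23e-06). AQP5 also fell there (-2.40), and CDK6, a cell cycle kinase, was called higher (1.13), but not without the ESMG array of pig 40 or after cyclic loess. LGR5, ASCL2 and SMOC2 were not analysed here.

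Of 13 genes of gland basal and ductal progenitors, 1 was called higher in ESMG than in squamous tissue, BHLHA15 (1.66, SE 0.23), a factor of secretory cells, and none lower. The median was -0.06. Over the settings run it ranged from -0.18 to 0.02. In spheroids against ESMG 3 of the 13 were called higher and 3 lower, beside 7.99% and 8.91% of all genes. ETV4, a target of receptor kinase signalling (1.94, SE 0.20), NGFR, a receptor of basal cells (1.35, SE 0.17) and RUNX1 (1.15, SE 0.20) were higher, the last not without the spheroids of pig 2 or after cyclic loess. The keratin KRT15 (-2.89, SE 0.39), the ductal factor ELF5 (-2.51, SE 0.19) and the growth factor receptor FGFR2 (-1.20, SE 0.21) were lower. Of the members and these progenitor lists, KIT, LRIG1, AQP5, KRT15, ELF5 and FGFR2 were thus called lower in spheroids than in ESMG. CDK6, ETV4, NGFR and RUNX1 were called higher. No other member was called there in either direction, and SOX9, 0.75 higher without overlap, missed the fold minimum. KRT15 and ELF5 were at 10.72 and 10.55 in squamous tissue and 9.95 and 10.09 in ESMG, and KRT15 is also a squamous marker. Of the 4 measured squamous markers 3 were called lower in spheroids than in ESMG, CRNN (-4.04), A2ML1 (-3.98) and KRT15. KRT5 was 0.90 higher, under the fold minimum. The part of squamous cells in these falls was not tested. Of the glandular keratins KRT8 and KRT18 were not called in spheroids against ESMG (0.26 and 0.24, adjusted p = 0.453 and 0.500), and KRT19 was called higher (1.87). The Schwann cell and glia list, read because SOX9 and SOX10 mark such cells, had none of 7 called between the tissues (1 higher and 1 lower at an unadjusted p under 0.05), and NCAM1 alone was called lower in spheroids than in ESMG (-1.37).

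**Figure D5:**
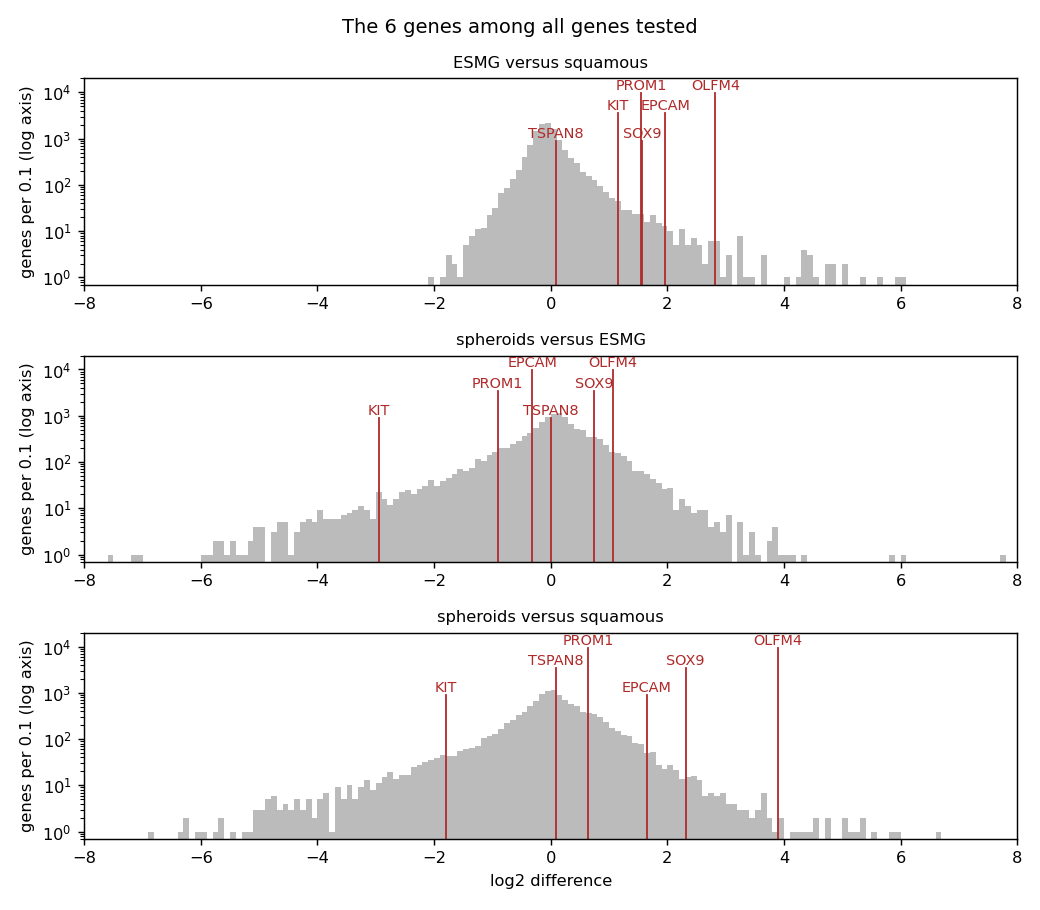
Number of genes (vertical log axis) by log2 difference (horizontal axis, bins of 0.1) for the 12217 genes tested in each comparison, with the 6 genes marked by lines. Between the tissues 5 of them lie in the upper tail, from KIT at 1.15 to OLFM4 at 2.82, and in spheroids against ESMG KIT at -2.95 is apart from the other 5.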

How the data were processed

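Log2 RMA values deposited by the authors were used as they stand. Per the labels they come from the gene-level RMA analysis of Affymetrix Expression Console. Transcriptome Analysis Console 3.0 is also named, per the submitters' processing notes, without a role. The genome build and the console's version were not given in the sources used here, so no coordinates are printed. RMA evens out array distributions and compresses differences near the floor. Of 27558 probe sets, 13157 had 1 gene symbol, 523 several and 13878 none. Symbols were updated by gene number with the RefSeq table of Sscrofa11.1 (12841 matched, 7 changed; PROM1 kept the annotation's symbol). Where a gene had several probe sets, the one with the highest mean stood for it. Groups and pig numbers came from the sample titles, and 0 value columns were left without a sample.

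With limma 3.58.1 (lmFit, eBayes) in R 4.3.3, 1 mean per group was estimated over the 9 arrays, leaving 6 residual degrees of freedom; the script was tested on simulated data. The tissues of a pig come from 1 animal; deviations of ESMG and squamous arrays from their group means correlated at 0.42, -0.15 and -0.17 in pigs 37, 39 and 40. Pig as a block was an alternative (statmod 1.5.0), beside other normalizations, filters, probe set choices, array weights and leaving out each array. The series' design text calls the replicates biological.

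The members, the gene lists (progenitor, pathway, family and cell type markers) and the tests were chosen with earlier results of these data known. Genes named besides the 6 are the 3 most correlated with each over 9 arrays, and called list members, mainly the 2 largest rises and falls per list and comparison. Other list genes with values (KITLG, GRB2, SHC1, BTK, SOX2, SOX4, SOX10, PROM2, CLDN7, LRIG1 between the tissues, ANO1, IL1RL1, GATA2, TYR, MLANA, TYRP1, MPO, S100A8, S100A9, S100A12, KRT5, PTPRC) were chosen after their values were seen. CXCR2 between the tissues and PRKCQ were also chosen after their values were seen. Lists were given no set test.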

Additional observations from a re-analysis of the deposited data

How the results depend on the processing

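Each of the 6 genes was refitted under up to 17 alternatives per comparison, 291 refits in all, of which 272 kept direction and side of the threshold. SOX9 and EPCAM in ESMG versus squamous tissue and KIT, SOX9, OLFM4 and EPCAM in spheroids versus squamous tissue kept their calls in every refit run, as did KIT in spheroids versus ESMG. When single arrays were left out, the tissue difference ranged from 1.34 to 1.77 for PROM1, 0.79 to 1.36 for KIT and 1.94 to 3.41 for OLFM4, with calls lost as given above. In spheroids versus ESMG it ranged from -1.23 to -0.55 for PROM1, 0.48 to 1.95 for OLFM4 and -0.60 to -0.16 for EPCAM, and in spheroids versus squamous tissue from 0.33 to 1.00 for PROM1. When only the arrays of both tissues were modelled, KIT kept its difference of 1.15 and lost its call (adjusted p = 0.0568). TSPAN8 changed sign after cyclic loess (-0.00974, spheroids versus ESMG) and when single arrays were left out, ranging from -0.0245 to 0.21 between the tissues, -0.0639 to 0.0841 in spheroids versus ESMG and -0.0192 to 0.21 in spheroids versus squamous tissue. The setting that left out the dimmest genes gave no value for it.

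Over all genes, 374 were called between the tissues, and 276 to 569 when single arrays were left out, the fewest without the ESMG array of pig 39 and the most without that of pig 40. Calls lower in ESMG, 50 of the 374, ranged from 24 to 122 in the same way and were 120 with array weights. Testing every probe set, named or not, gave 604, 4153 and 4129 calls in place of 374, 2065 and 2035, since more features were tested. With pig as a fixed or random replicate block, the tissue difference of KIT stayed at 1.15 and no call on the 6 genes changed. The genes most like each member depended on the measure: over the 6 tissue arrays alone, none of the 3 named for SOX9, PROM1 or EPCAM stayed among the 3 most alike. Dim signal limits what TSPAN8 on all arrays, OLFM4 in squamous tissue, OLFM3 and DCT outside ESMG and MYOC in spheroids can show.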
